A study of Mus musculus with 2 samples.

Results

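The alpha cells described here are the islet cells whose messenger RNA was rich in Gcg, the preproglucagon gene, and held little Ppy, the pancreatic polypeptide gene. They were chosen by 4 shares of each cell's unique molecular identifiers (UMIs), which count captured RNA molecules: at least 5% Gcg, under 10% insulin (Ins1 plus Ins2), under 1% somatostatin (Sst) and under 2% Ppy. Only barcodes with at least 500 detected genes and at most 10% mitochondrial UMIs were considered. The rule took 945 of 10781 cells, which is 8.77%. The cells came from wild-type C57BL/6J mice, a common inbred strain, that had eaten either regular chow (4 mice) or a diet with 60% fat (HFD, 5 mice) for 6 weeks from weaning. Islets of both groups were isolated enzymatically, picked by hand, kept in culture overnight and dispersed with trypsin before droplet capture. The mice of a diet were combined in 1 library, so that no cell can be assigned to its mouse, and the sex of the mice is not given in the sources used here. With 1 library per diet, an effect of the diet and a difference between the libraries cannot be told apart. No test was therefore made, and each comparison below describes these cells with counting error only.

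Alpha cells secrete glucagon, the hormone that raises blood glucose by acting on the liver, when glucose falls and when amino acids or adrenaline rise. They cut glucagon from proglucagon with the protease prohormone convertase 2, encoded by Pcsk2, and owe their identity to transcription factors that include the Irx family. Insulin and somatostatin from the neighbouring beta and delta cells restrain them, and pancreatic polypeptide (PP) cells are a further endocrine cell type of the islet.

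The chow library held 6509 barcodes and 89292222 UMIs, and the HFD library held 4539 barcodes and 68544729 UMIs. The limits on genes and mitochondrial RNA removed 122 and 145 barcodes. No barcode held fewer than 3846 (chow) or 4017 UMIs (HFD). Between the libraries, 44 kept barcodes were shared. No barcode was a member in both, and 10 members had their barcode in the other library too. In what follows, alpha cells are set beside beta cells (at least 20% insulin), delta cells (at least 1% Sst) and PP cells (at least 15% Ppy), and a gene's level is its UMIs per 1000000 UMIs of the class (CPM), with an exact Poisson 95% interval where one is given.

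The chow library gave 631 alpha cells of 6387 kept cells, or 9.88% (95% Clopper-Pearson interval 9.16 to 10.6). The HFD library gave 314 of 4394, or 7.15% (6.40 to 7.95). The share was thus lower in the HFD library by more than counting error, while the delta share was 8.80% (chow) and 10.4% (HFD). A share of all cells also moves with the number of the other cells that were captured. The median alpha cell held 8151 (chow) and 10700 UMIs (HFD), against 14810 and 16947 for beta cells. Mitochondrial UMIs made up a median of 3.48% and 2.98%.

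The hormones that chose the cells are given as a description. Gcg took a median of 20.9% of an alpha cell's UMIs in the chow library, with a lowest value of 6.11% and a highest of 54.8%. In the HFD library the median was 24.9%, the lowest value 6.36% and the highest 41.5%. The distributions overlapped widely, and the quartiles ran from 17.6 to 24.4% in the chow library and from 20.5 to 28.9% in the HFD library. In beta cells the median Gcg share was 0.0835% and 0.0528%, so alpha cells lay far from it. The members were also far from the insulin limit, with medians of 2.38% and 1.72% and highest values of 5.81% and 4.57%. The lowest insulin share left out among cells that met the other limits was 16.5% (chow) and 11.0% (HFD). The limit on Gcg fell in a sparse range: 8 and 7 members lay under 10% Gcg, and the highest Gcg shares outside were 4.99% and 4.02%.

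**Figure D1:**
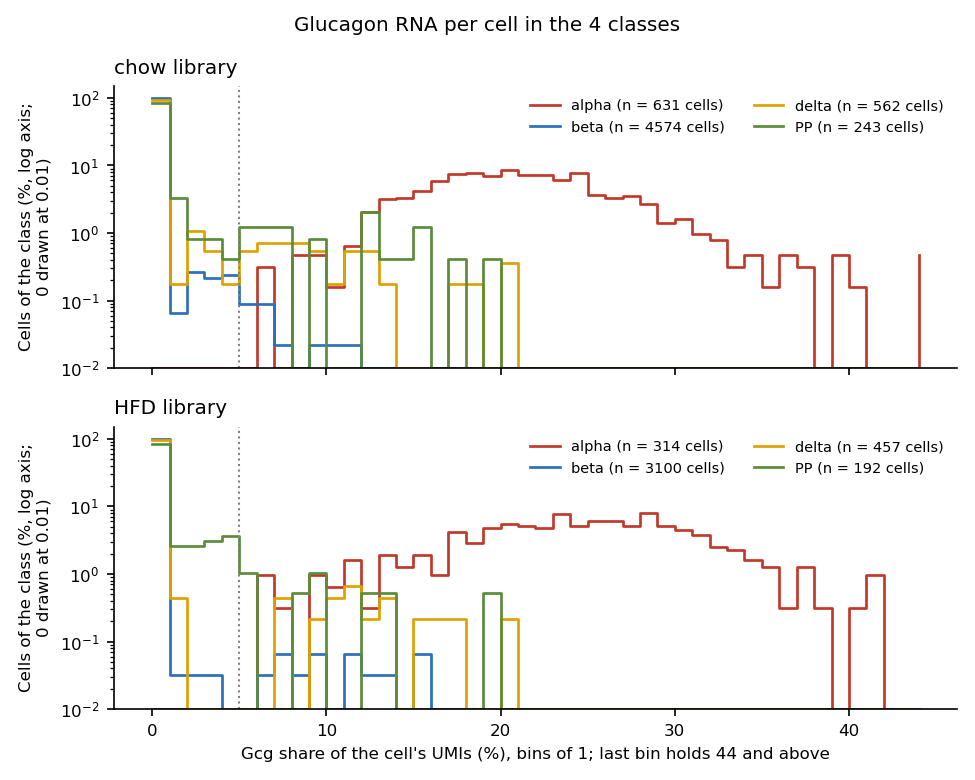
Share of each cell's UMIs taken by Gcg (horizontal axis, percent) against the percent of cells of each class (vertical log axis), in 1 panel per library. Alpha cells form a broad peak with medians of 20.9% and 24.9%, and few members lie near the 5% limit.

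The limit on Ppy, in contrast, cut through a continuous range. Alpha cells held a median of 0.14% (chow) and 0.114% Ppy (HFD). The highest members had 1.996% and 1.916%, and the nearest cells left out had 2.06% and 2.1%. Between 1% and 2% Ppy lay 39 and 21 members, and 38 and 23 cells with up to 4% Ppy were left out. Of all cells with at least 5% Gcg, 791 (chow) and 414 (HFD), 111 and 69 were left out for their Ppy. The limit therefore cut the upper tail of a range. Most members lay far under it, with an upper quartile of 0.235% (chow) and 0.213% (HFD).

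The markers that name an alpha cell bore out the label. Ttr, which encodes the thyroid hormone carrier transthyretin, stood at 30869 CPM in chow alpha cells and 30893 CPM in HFD alpha cells, against 763 and 502 CPM in beta cells, 1494 and 846 CPM in delta cells and 2131 and 1258 CPM in PP cells. Irx1, an Iroquois transcription factor, stood at 53.9 and 48.1 CPM in alpha cells, against 0.433 and 0.303 CPM in beta cells, 4.55 and 2.15 CPM in delta cells and 2.20 and 1.27 CPM in PP cells. After every cell was thinned to 3800 UMIs, an Irx1 UMI was found in 19.2% of chow and 15.3% of HFD alpha cells, against 0.0437% and 0.161% of beta cells, which should lack it. Without thinning these shares were 32.2% and 36.6% of alpha cells and 0.656% and 0.516% of beta cells. Both markers were thus well above their level in beta cells. Whether free RNA or doublets gave the UMIs in beta cells was not tested.

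To compare alpha cells with the other 3 classes, the log2 ratio of summed levels was taken in each library and set relative to the median ratio over all genes with at least 50 counts, so that 0 marks the typical gene. A gene is counted here when it lay at least 2-fold from that median in both libraries. Of 11427 genes, 562 (4.92%) were that much higher in alpha than in beta cells and 1005 (8.79%) lower. Against delta cells, 233 of 8889 genes were higher (2.62%) and 499 lower (5.61%). Against PP cells, 114 of 7199 were higher (1.58%) and 145 lower (2.01%). PP cells thus had the smallest shares in both directions, but the 3 comparisons rest on different sets of genes. Some PP and delta cells were also rich in Gcg. The 95th percentile of the Gcg share was 9.42% (chow) and 4.84% (HFD) in PP cells. It was 5.85% and 0.359% in delta cells, against 0.153% and 0.107% in beta cells. Of the delta cells, 64 (chow) and 54 (HFD) also met the limit for beta cells. Against all 3 classes at once, 60 of 7187 genes were higher in alpha cells (0.835%) and 53 lower (0.737%). The classes were chosen by their hormones, so these counts describe the cells and carry no test.

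Transcription factors were among the genes farthest above the other classes. Irx2, the second Iroquois gene, stood at 60.2 and 58.5 CPM, against at most 8.28 CPM in any other class, and the smallest of its 6 relative log2 ratios was 2.40. Id1, a dominant inhibitor of helix-loop-helix factors, stood at 186 and 279 CPM in alpha cells, against 3.22 and 3.60 CPM in beta cells and 36.5 and 37.9 CPM in PP cells.

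Several of the genes above all 3 classes encode secreted proteins. Sfrp5, a secreted antagonist of Wnt signals, stood at 266 and 251 CPM in alpha cells, against 3.34 and 2.93 CPM in beta cells and 54.9 and 53.2 CPM in PP cells. Edn3, which encodes the peptide endothelin 3, stood at 87.6 and 73.4 CPM, against 0.657 and 0.416 CPM in beta cells and 16.5 and 18.2 CPM in PP cells. Lpl, lipoprotein lipase, which frees fatty acids from circulating triglycerides, stood at 350 and 424 CPM, against at most 63.7 CPM elsewhere. All 3 were higher in alpha cells of both libraries, as the plot of levels by class shows.

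Metabolic and cytoskeletal genes completed the group. Higd1a, a mitochondrial protein induced by low oxygen, stood at 441 and 475 CPM in alpha cells and at 3.99 and 2.95 CPM in beta cells, with a smallest ratio over the 3 classes of 3.10. Cryba2, a beta-gamma crystallin, stood at 383 and 329 CPM, against 24.9 and 26.3 CPM in beta cells. Tmsb4x, which encodes the actin-binding peptide thymosin beta 4, stood at 2448 and 1981 CPM, against 474 to 600 CPM in the other classes. Of the related Tmsb15 genes, Tmsb15b2 was at 313 and 218 CPM in alpha cells, Tmsb15b1 at 168 and 220 CPM and Tmsb15l at 128 and 147 CPM. These 3 are near-identical copies, so the split of reads between them is uncertain. Upk3a, a uroplakin, had the highest smallest ratio, 3.88, with 55.8 and 58.5 CPM in alpha cells and at most 2.87 CPM elsewhere. Its level rested on few cells: the 5 cells with the most counts held 45.7% (chow) and 39.1% (HFD) of its counts. Upp1, uridine phosphorylase, Cald1, the actin-binding caldesmon, and Aard, Nudt11 and Basp1 also met the rule, with smallest ratios from 1.28 to 1.68.

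**Figure D2:**
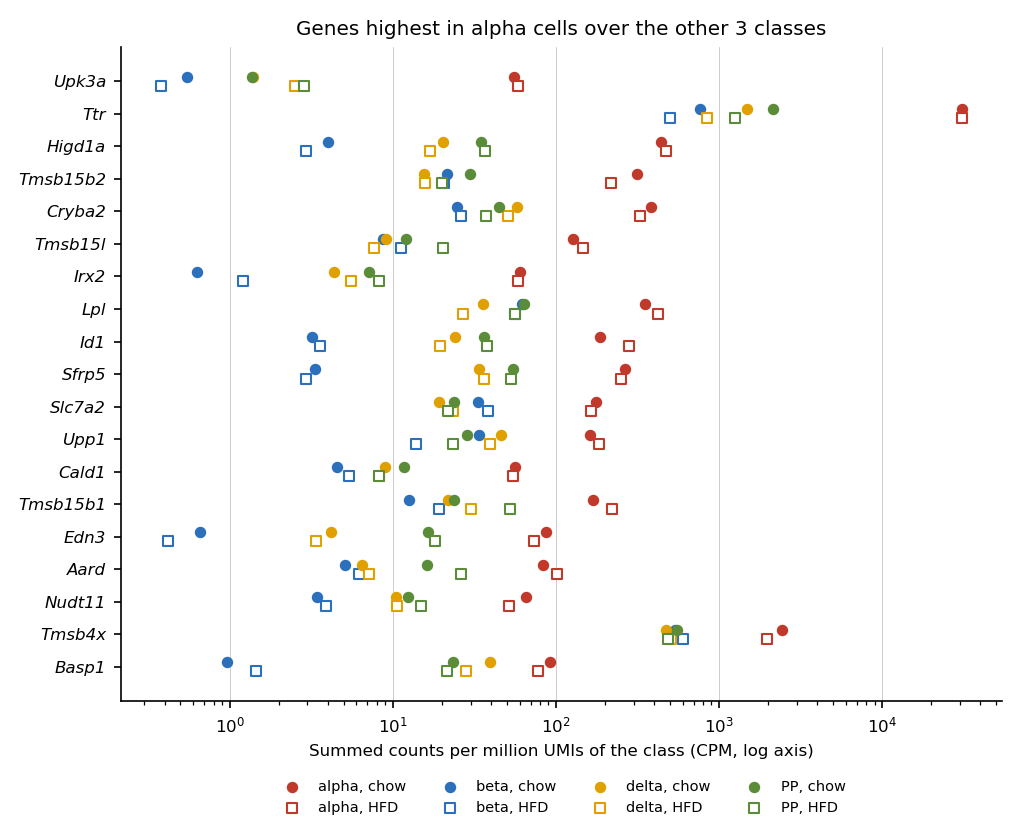
Summed level (CPM, log scale) of the 19 genes shown of those farthest above the other classes, in alpha, beta, delta and PP cells, with a filled circle for the chow and an open square for the HFD library. The alpha symbols of every gene lie to the right of all others, as for Higd1a (441 and 475 CPM, against at most 36.6 CPM elsewhere).

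The genes lowest in alpha cells relative to all 3 other classes were led by Fam159b, a membrane protein gene, at 10.4 and 7.73 CPM in alpha cells. It stood at 127 and 117 CPM in beta cells, 768 and 761 CPM in delta cells, and 87.8 and 93.3 CPM in PP cells. Hadh, a dehydrogenase of fatty acid oxidation that also restrains insulin release, stood at 13.2 and 9.51 CPM in alpha cells, 192 and 189 CPM in beta cells, 230 and 256 CPM in delta cells and 95.0 and 95.9 CPM in PP cells. Neat1, the long noncoding RNA on which paraspeckles form, stood at 28.8 and 19.6 CPM, against 112 to 207 CPM in the other classes. Alpha cells had the lowest level of these 3 genes in both libraries.

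Other genes of the group act in the secretory granule or against oxidants. Iapp, which encodes the granule peptide amylin, stood at 5531 and 2637 CPM in alpha cells and 76744 and 61360 CPM in beta cells. It stood at 58785 and 45811 CPM in delta cells and 12573 and 10674 CPM in PP cells. The alpha level was 7.21% and 4.30% of the beta level. Within alpha cells Iapp went with Ins2, with a Spearman rho of 0.40 over 631 cells and 0.45 over 314 cells that share a library, so that a part from free beta cell RNA was not tested. Scg2, secretogranin II, stood at 351 and 447 CPM, against 962 to 2095 CPM in the other classes. Gstm1 and Gpx2, which detoxify electrophiles and peroxides, Dio1, a deiodinase of thyroid hormone, S100a1, a calcium sensor, and Atp1b1, a subunit of the sodium pump, were the remaining genes. Their highest ratios over the 3 classes ran from -1.93 (Dio1) to -1.05 (Atp1b1).

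The lists of alpha cell biology were examined against the same background. Of 22 alpha identity genes compared with all 3 classes, 11 were above them all, against 0.835% of all genes. Against beta cells 19 of 22 were higher, with a median relative log2 ratio of 3.70. Against delta cells 15 of 22 were higher (median 1.82), and against PP cells 11 of 22 (median 1.52). This list was built from known alpha cell genes, so the direction was given by the choice. Pyy, peptide YY, was the 1 member at least 2-fold below delta cells, and the 1 member that far below PP cells, in both libraries. Among other members, Rgs4 and Tm4sf4 had smallest ratios of -0.28 and -0.15. Pyy stood at 23469 and 20945 CPM in alpha cells and 2282 and 2991 CPM in beta cells. It stood at 75690 and 71200 CPM in delta cells and 124700 and 95590 CPM in PP cells. The limit on Ppy bears on this value, since cells rich in Ppy were also rich in Pyy.

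The convertases were unequally divided between the classes. Pcsk2 stood at 2927 and 4165 CPM in alpha cells and at 1543 and 2105 CPM in beta cells, and its ratio over the 3 classes ran from 0.33 to 0.97, short of the 2-fold limit. Pcsk1, which encodes the convertase that would yield glucagon-like peptide 1, stood at 3.83 and 2.38 CPM in alpha cells, against 53.7 and 36.5 CPM in beta cells. At 3800 UMIs a Pcsk1 UMI was found in 1.27% and 0.318% of alpha cells and in 16.3% and 13.1% of beta cells (2.85% and 2.23%, and 47.7% and 39.8%, without thinning). The median alpha cell held 11 and 15.5 Pcsk2 UMIs at that depth. Pcsk1n, an inhibitor of the other convertase, stood at 4706 and 5293 CPM in alpha cells and 1879 and 1399 CPM in beta cells. Of 18 genes of proglucagon processing and the granule that could be compared with all 3 classes, none was higher than all 3.

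Receptors for the signals that restrain or drive glucagon release came next. Of 16 receptors compared with all 3 classes, 2 were higher in alpha cells (0.835% of all genes) and 1 was lower (0.737% of all genes). Sstr2, the somatostatin receptor, stood at 24.2 and 19.3 CPM, against 0.224 and 0.114 CPM in beta cells, with a smallest ratio of 1.58. Oxtr, the oxytocin receptor, stood at 23.6 and 33.9 CPM, against 1.2 and 1.8 CPM in beta cells. Avpr1b, a vasopressin receptor, stood at 11.9 and 15.5 CPM in alpha cells and at 0.168 and 0.0947 CPM in beta cells, but PP cells held 4.67 and 5.41 CPM. Prlr, the prolactin receptor through which beta cells adapt to pregnancy, was the receptor below all 3 classes, at 4.60 and 3.27 CPM in alpha cells against 150 CPM in beta cells of both libraries. Gcgr, the glucagon receptor, stood at 0.767 and 1.19 CPM in alpha cells and 14.3 and 19.9 CPM in beta cells.

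Amino acids drive glucagon secretion and alpha cell growth, and 3 of 20 genes of their transport and metabolism were above all 3 classes, against 0.835% of all genes. Slc7a2, a carrier of arginine and other cationic amino acids, stood at 177 and 165 CPM in alpha cells, 33.4 and 38.4 CPM in beta cells, 19.3 and 23.5 CPM in delta cells and 23.9 and 22 CPM in PP cells. Slc7a8, a carrier of large neutral amino acids, stood at 111 and 105 CPM, against 15.9 to 33.0 CPM elsewhere. Slc38a5, a glutamine carrier, stood at 23.2 and 25.3 CPM, against at most 10.2 CPM elsewhere. All 3 carriers were higher in alpha cells of both libraries. Of 20 ion channel genes, none was above all 3 classes. Kcnk3, a background potassium channel, stood at 210 and 159 CPM in alpha cells, 2.33 and 1.84 CPM in beta cells and 66.1 and 84.7 CPM in PP cells.

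Signalling and protein synthesis genes differed from beta cells as well. Gnas, which encodes the stimulatory G protein that couples receptors to cyclic AMP, stood at 4600 and 4082 CPM in alpha cells, 451 and 446 CPM in beta cells, 2292 and 2208 CPM in delta cells and 1508 and 1510 CPM in PP cells. It was the 1 of 23 genes of that pathway above all 3 classes, against 0.835% of all genes. The cytosolic ribosomal protein genes together took 201904 and 179137 CPM in alpha cells and 67736 and 71781 CPM in beta cells. Relative to the typical gene their median ratio over beta cells was 1.00, and 33 of 83 were at least 2-fold higher, against 4.92% of all genes. Insulin RNA takes up a large part of the UMIs in beta cells, which lowers every other gene's CPM there, and the ratios to the median gene are not touched by that.

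Alpha cells also differed among themselves. At 3800 UMIs per cell, the spread of each gene was measured by its Fano factor, the variance over the mean, which is near 1 where only sampling spreads the counts. The median over 1571 genes was 1.05 in both libraries. With the rule's hormones and other cell types' markers left out of the ranking, Pyy had the largest value, 84.1 (chow) and 99.1 (HFD). The median alpha cell held 59 and 51 Pyy UMIs, the 5th percentile was 3 and 2 and the 95th was 260 and 247. Within the cells Pyy went with Ppy with a Spearman rho of 0.31 (631 cells) and 0.30 (314 cells). Ttr followed with 36.7 and 48.2, and a median of 103 and 94 UMIs per cell. Malat1, a nuclear noncoding RNA, came next with 28.1 and 40.6.

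Below those 3 genes the values dropped steeply. The metallothioneins Mt1 (5.36 and 4.14) and Mt2 (4.91 and 3.69) stood beside Chga, the granule protein chromogranin A (3.85 and 5.09), Gnas (3.70 and 3.36), Pcsk1n (3.07 and 3.15), Actb, which encodes actin (3.74 and 2.82), Eef1a1, a translation factor (3.04 and 2.98), and Resp18, a granule protein (2.79 and 2.83). Upk3a had 8.31 (chow) and 2.61 (HFD). All 12 named genes were also among the 12 most variable at full depth. Mki67, a marker of dividing cells, was found in 0.634% (0.173 to 1.62) of chow and 0.318% (0.00806 to 1.76) of HFD alpha cells at 3800 UMIs. Without thinning these shares were 1.58% and 0.955%. In beta cells they were 0.109% (0.0355 to 0.255) and 0.226% (0.0908 to 0.465) at 3800 UMIs. Top2a, another such marker, was found in 0.158% and 0% of alpha cells, against 0.219% and 0.129% of beta cells. Both markers were near the floor.

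Cells that met the alpha rule but for a Ppy share between 2 and 15% numbered 88 (chow) and 61 (HFD), a comparison chosen after seeing the data. Of the 5878 genes compared, 1 was at least 2-fold higher in the alpha cells with little Ppy in both libraries (0.017%). Another 5 were at least 2-fold lower there in both libraries (0.0851%). Genes with few counts were left out of this comparison. A gene nearly absent from the 88 and 61 cells could therefore be missed, so the number of higher genes may be too low. The gene that was higher was Map3k5, a stress-activated kinase, at 18.4 and 19.0 CPM against 7.36 and 6.90 CPM. The 5 lower genes were Pyy, Tspan8, Fgb, Folr1 and Fkbp11. Pyy stood at 23469 and 20945 CPM against 74205 and 68168 CPM. Tspan8, a tetraspanin, stood at 26.5 and 13.7 CPM against 134 and 59.4 CPM. Fgb, a fibrinogen chain, stood at 25.3 and 33.0 CPM against 136 and 109 CPM, and Folr1, a folate receptor, at 18.2 and 29.4 CPM against 74.8 and 76.0 CPM. Ttr was lower in the cells with more Ppy, at 18824 and 14114 CPM. Since Ppy split these cells, the values are a description.

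Alpha cells were next compared between the libraries. Of 8402 genes with at least 50 counts, 48 (0.571%) were at least 2-fold higher in the HFD library relative to the median gene and 108 (1.29%) at least 2-fold lower. The median log2 ratio of all genes was -0.02, so that these relative ratios differ little from plain CPM ratios in alpha cells. Ttr and Irx1 had ratios of 0.03 and -0.14, and the sign of the Ttr value changed with the processing. Cd63, the tetraspanin of endosomes and granules, stood at 689 CPM (chow) and 370 CPM (HFD), a log2 ratio of -0.87 (-0.97 to -0.78). The same ratio was -1.70 in beta, -0.56 in delta and -1.06 in PP cells, so the Cd63 level was lower in the HFD library in every class. A Cd63 UMI was found in 87.6% and 68.5% of alpha cells at 3800 UMIs (96.8% and 88.9% without thinning).

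**Figure D3:**
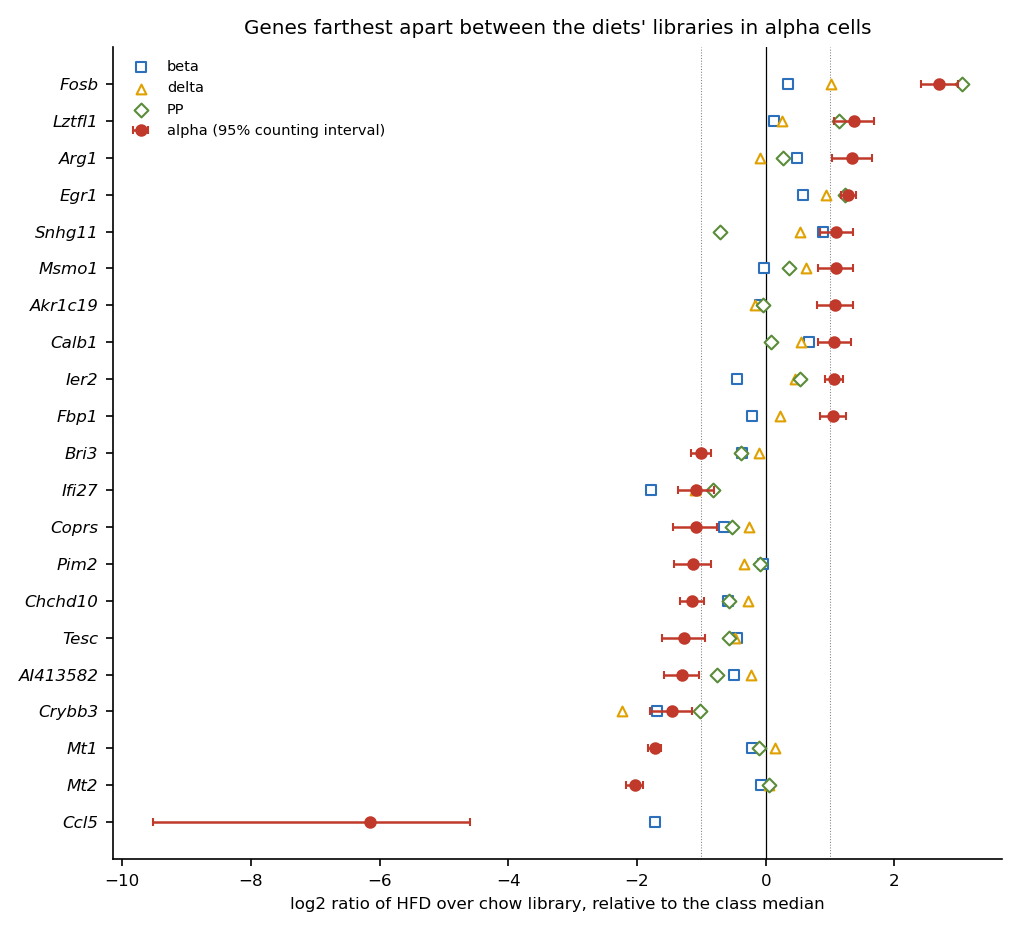
Log2 ratio of HFD over chow relative to the median gene (horizontal axis) for the genes named as most different in alpha cells, with the same ratio in beta, delta and PP cells as other symbols and bars for the 95% counting intervals of alpha cells. Among the alpha values Fosb lies farthest to the right (2.69) and Ccl5 farthest to the left (-6.14).

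The metallothionein genes Mt1 and Mt2 were lower in HFD than in chow alpha cells, while their ratios in the other 3 classes lay near the median gene. Metallothioneins are small cysteine-rich proteins that bind zinc and copper, and their genes are switched on through metal response elements by the zinc-sensing factor MTF-1, and also by glucocorticoids and oxidants. The promoters of Mt1 and Mt2 are shown because the pair moved together. They are taken from RefSeq (GRCm38.p6) and not from the authors' files, both genes being matched by symbol, and run from 250 bases before to 50 bases after the annotated start on the plus strand, Mt1 at chr8:94178839-94179138 and Mt2 at chr8:94172368-94172667. Capitals mark matches to the core of the metal response element, TGCACNC or TGCGCNC on either strand.
Mt1: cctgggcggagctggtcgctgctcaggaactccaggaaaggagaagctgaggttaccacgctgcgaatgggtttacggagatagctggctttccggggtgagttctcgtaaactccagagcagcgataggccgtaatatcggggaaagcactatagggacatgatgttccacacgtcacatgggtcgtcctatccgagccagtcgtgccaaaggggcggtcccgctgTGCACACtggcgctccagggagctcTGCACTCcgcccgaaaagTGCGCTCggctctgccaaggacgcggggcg
Mt2: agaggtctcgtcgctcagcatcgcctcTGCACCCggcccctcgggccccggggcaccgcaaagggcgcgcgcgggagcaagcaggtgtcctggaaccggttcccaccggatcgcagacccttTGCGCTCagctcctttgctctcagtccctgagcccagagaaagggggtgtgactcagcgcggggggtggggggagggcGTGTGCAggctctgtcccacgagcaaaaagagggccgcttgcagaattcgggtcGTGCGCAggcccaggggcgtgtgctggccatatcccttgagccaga
Mt1 held 3 matches and Mt2 held 4. Among 32544 distinct mouse promoters of the same length, 25.9% held at least 1, 1.99% at least 3 and 0.522% at least 4. A match describes the letters in these windows and is not evidence of binding in these cells.

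In alpha cells Mt1 stood at 1028 CPM (1001 to 1056) for chow and 305 CPM (287 to 325) for HFD. Mt2 stood at 701 CPM (679 to 725) and 168 CPM (155 to 183). The log2 ratios were -1.73 (-1.82 to -1.63) for Mt1 and -2.03 (-2.17 to -1.91) for Mt2. In beta cells Mt1 stood at 1845 and 1821 CPM and Mt2 at 966 and 1053 CPM. The relative ratios of Mt1 were -0.22 in beta, 0.15 in delta and -0.10 in PP cells, and those of Mt2 were -0.08, 0.06 and 0.06. The other 3 classes thus stayed within 0.22 of their median gene, and whether the alpha cells differ from them could not be tested with 1 library per diet.

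The difference was spread over many cells. At 3800 UMIs the median chow alpha cell held 4 UMIs of Mt1 and Mt2 together, the upper quartile was 9 and the highest value 41. The median HFD alpha cell held 1, the upper quartile was 2 and the highest value 27. At least 10 UMIs were found in 150 chow alpha cells, 23.8% (20.5 to 27.3), and in 12 HFD alpha cells, 3.82% (1.99 to 6.58). In beta cells the share was 33.2% (chow) and 36.8% (HFD). Without thinning the shares were 44.5% and 15% of alpha cells and 64.8% and 71.0% of beta cells. Within chow alpha cells Mt1 and Mt2 went together with a Spearman rho of 0.68 over 631 cells, and in the HFD library with 0.37 over 314 cells at lower counts.

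**Figure D4:**
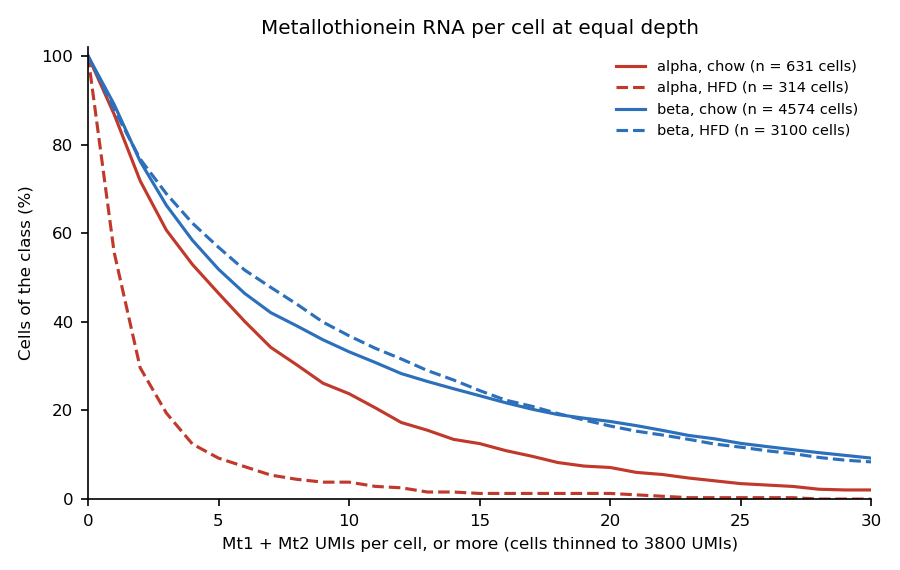
Percent of alpha and beta cells (vertical axis) that held at least a given number of Mt1 plus Mt2 UMIs (horizontal axis) after thinning to 3800 UMIs, in both libraries. At 10 UMIs the alpha curves stand at 23.8% (chow) and 3.82% (HFD), and the beta curves at 33.2% and 36.8%.

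RNA of other cells was measured beside this result. Iapp in alpha cells was 7.21% and 4.30% of its beta level, and the same shares of the beta levels of the metallothioneins are 133 and 78.3 CPM for Mt1 and 69.6 and 45.3 CPM for Mt2. Delta cells also held much Iapp (58785 and 45811 CPM), so these shares do not measure beta cell RNA alone. The part of free beta cell RNA in the result was not tested. Markers of acinar cells summed to 57.3 CPM in chow and 11.6 CPM in HFD alpha cells (11 markers, of which Cela2a and Cela3b were at 0 in the HFD library), and markers of macrophages to 83.0 and 40.1 CPM (9 markers, with Csf1r at 0 in the HFD library). The highest single cell held 80.8 and 2.22 acinar and 110 and 4.87 macrophage UMIs per 10000. Endothelial (37.8 and 26.2 CPM) and Schwann markers (16.5 and 12.2 CPM) were lower in the HFD library too. Mesenchymal markers went the other way, at 166 and 255 CPM, and ductal markers stood at 788 and 712 CPM. Their highest single cells held 497 and 363 mesenchymal and 253 and 286 ductal UMIs per 10000. Without the 5 cells of each library with the most counts of each gene, an alternative chosen after seeing the data, the ratios were -1.86 for Mt1 and -2.20 for Mt2, as large as with them. In the 122 chow and 58 HFD cells with at most 2 UMIs of markers of non-endocrine cell types, the ratios were also -1.86 and -2.20. Beta cell markers were not part of this limit, and all 631 chow and 314 HFD alpha cells held 3 or more UMIs of them.

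Ccl5, a chemokine of lymphocytes and macrophages, had the lowest ratio of all named genes, -6.14, from 53.3 CPM (278 counts) to 0.594 CPM (2 counts). It was a matter of few cells, since 5 chow cells held 97.5% of its counts, which left few counts in the other cells. Of the 7 lymphocyte markers, 6 were at 0 in alpha cells of both libraries.

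The remaining genes on the lower side stood about 2-fold to 3-fold lower in the HFD library. Crybb3, a crystallin, stood at 82.8 and 29.4 CPM, a ratio of -1.46, and was lower in the HFD library in beta (-1.69), delta (-2.23) and PP cells (-1.02) too. In alpha cells the 5 cells with the most counts held 33.3% (chow) and 46.5% (HFD) of its counts. Tesc, a calcium-binding regulator of sodium-proton exchange, stood at 70.9 and 28.8 CPM, a ratio of -1.27. Chchd10, a protein of the mitochondrial intermembrane space, stood at 200 and 88.9 CPM (-1.14), and Pim2, a survival kinase, at 88.0 and 39.5 CPM (-1.13). Ifi27, which interferon induces, stood at 89.7 and 41.6 CPM (-1.08), and its ratio in beta cells was -1.79. AI413582, Coprs and Bri3 had ratios of -1.30, -1.08 and -1.0.

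On the higher side the largest ratio belonged to Fosb, a member of the AP-1 family of transcription factors that cells make within minutes of stimulation. It stood at 24.5 CPM (20.5 to 29.2) in chow and 157 CPM (144 to 171) in HFD alpha cells, a ratio of 2.69 (2.42 to 2.99). The ratio was 0.34 in beta, 1.01 in delta and 3.04 in PP cells, so the HFD library was higher in each class, least so in beta cells. At 3800 UMIs a Fosb UMI was found in 8.24% of chow and 39.8% of HFD alpha cells, against 8.55% and 14.0% of beta cells. Without thinning the shares were 16.3% and 66.9% of alpha and 25.9% and 39.3% of beta cells.

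Other immediate early genes followed. Egr1, a zinc finger factor, stood at 186 CPM (175 to 198) and 447 CPM (424 to 470), a ratio of 1.29, with 0.57 in beta, 0.93 in delta and 1.23 in PP cells. Ier2 stood at 139 CPM (129 to 149) and 284 CPM (266 to 302), a ratio of 1.05, with -0.45 in beta, 0.45 in delta and 0.53 in PP cells. Fos, the partner of the Jun proteins in AP-1, stood at 380 and 722 CPM, a ratio of 0.95. Of 22 immediate early genes, 16 were above the median gene, and 6 were at least 2-fold higher (Fosb, Npas4, Egr2, Egr4, Egr1 and Ier2), against 0.571% of all genes. The list's median was 0.35 in alpha cells, -0.20 in beta, 0.45 in delta and 0.53 in PP cells.

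Genes of lipid synthesis differed in both directions. Cyp51, the lanosterol demethylase, stood at 16.7 and 33.0 CPM (1.01). Fdps, which makes farnesyl diphosphate, stood at 66.7 and 100.1 CPM (0.61). Of 21 genes of lipid synthesis 14 were above the median gene and 2 were at least 2-fold higher, Cyp51 among them, against 0.571% of all genes, with a median of 0.26. Below the median gene lay Acly, which makes cytosolic acetyl-CoA, at 291 and 251 CPM (-0.19), and Scd2, a fatty acid desaturase, at 63.8 and 49.0 CPM (-0.35). The median was -0.13 in beta, -0.05 in delta and 0.26 in PP cells.

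The other genes of this side have varied roles. Msmo1, a methylsterol oxidase, stood at 37.6 and 78.5 CPM, a ratio of 1.09. Lztfl1, a regulator of traffic through the primary cilium, stood at 28.0 and 71.0 CPM, a ratio of 1.37, with 0.13 in beta and 1.13 in PP cells. Arg1, the arginase that turns arginine into ornithine, stood at 28.0 and 69.5 CPM, a ratio of 1.34, with 0.49 in beta and -0.08 in delta cells. Fbp1, an enzyme of gluconeogenesis, stood at 67.7 and 138 CPM (1.05). Calb1, a calcium buffer, stood at 43.1 and 88.9 CPM (1.07). Snhg11, a noncoding host of small nucleolar RNAs, and Akr1c19, an aldo-keto reductase, had ratios of 1.09 and 1.07. Each of these genes was at least 2-fold higher in the HFD library relative to the median gene.

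The granule genes leaned to the HFD side by less. Of 18 genes of proglucagon processing and the granule, 14 were above the median gene and none was 2-fold higher, with a median of 0.21 against -0.17 in beta, -0.08 in delta and -0.23 in PP cells. In alpha cells with few markers of non-endocrine types the median was 0.056 (9 of 15 genes above). With ductal markers left out of that limit it was 0.172 (14 of 18). Pcsk2 stood at 2927 and 4165 CPM (0.53). Chga stood at 2607 and 3470 CPM (0.44), and Scg3, secretogranin III, at 226 and 324 CPM (0.54). Ctsb, the lysosomal protease cathepsin B, stood at 301 and 202 CPM (-0.55). The lysosome and tetraspanin list as a whole lay lower, with 5 of 30 genes above the median gene and a median of -0.21, and its medians in beta, delta and PP cells were -0.20, -0.18 and -0.39. Gabarap, an autophagy protein, stood at 827 and 579 CPM in alpha cells, a ratio of -0.49, and Lamp2, a lysosomal membrane protein, at 172 and 105 CPM (-0.68).

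The lists of folding and of the nuclear genes of respiration had medians of opposite sign in alpha and beta cells. Of 31 genes of the unfolded protein response and folding in the endoplasmic reticulum, 24 were above the median gene in alpha cells, with a median of 0.17 against -0.51 in beta, -0.27 in delta and -0.19 in PP cells. Hsp90b1, the chaperone GRP94, stood at 225 and 338 CPM in alpha cells (0.61) and at 242 and 170 CPM in beta cells (-0.71). Calr, calreticulin, stood at 282 and 358 CPM in alpha cells (0.37) and at 253 and 167 CPM in beta cells (-0.80). Of 77 nuclear genes of oxidative phosphorylation, 51 were above the median gene, with a median of 0.10 in alpha cells against -0.66 in beta, -0.15 in delta and -0.19 in PP cells. In cells with few markers of non-endocrine types the alpha median was 0.054 (41 of 74 genes above). With ductal markers left out of that limit it was 0.0897 (50 of 77). After thinning to 3800 UMIs it was 0.051 (42 of 76). The mitochondrially encoded genes ran the other way, with 4 of 12 above and a median of -0.13 in alpha against 0.05 in beta cells. Atp5l, a subunit of ATP synthase, stood at 1199 and 1414 CPM in alpha cells (0.26), and its ratio in beta cells was -0.53. No gene of the folding and nuclear respiration lists was 2-fold higher or lower in alpha cells.

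**Figure D5:**
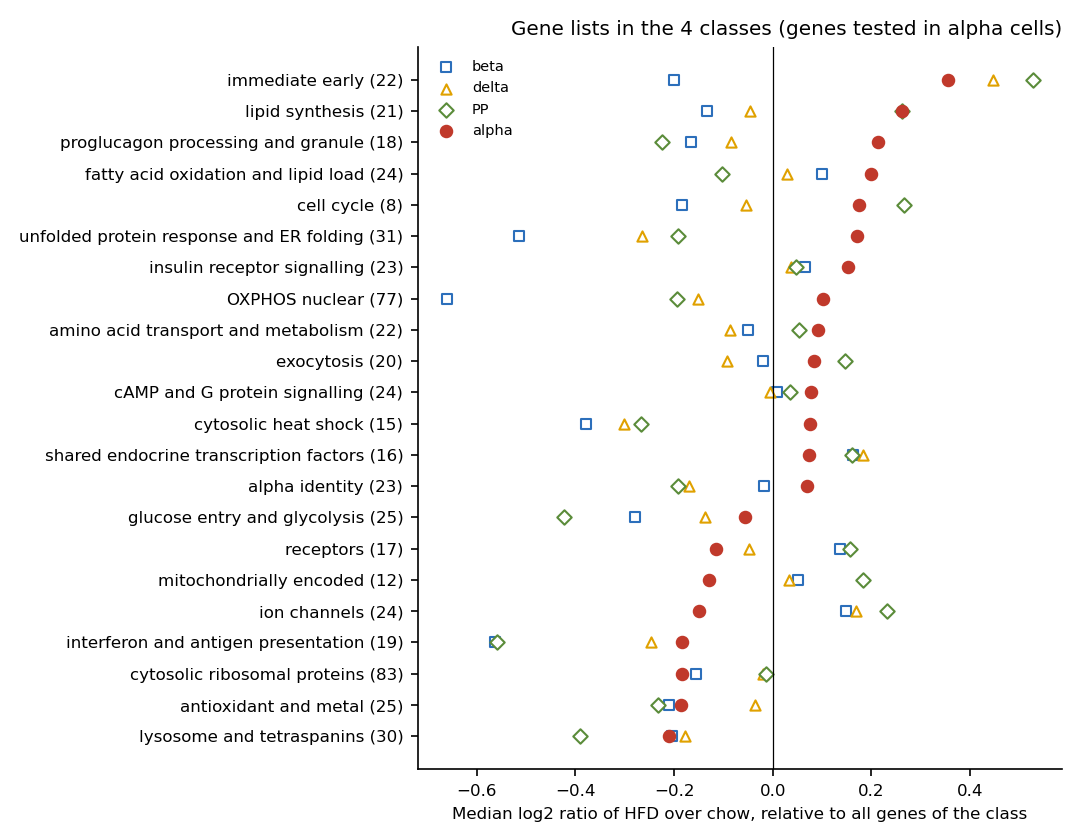
Median over each gene list of the log2 ratio of HFD over chow relative to the median gene (horizontal axis), in alpha, beta, delta and PP cells. For oxidative phosphorylation the alpha median is 0.10 and the beta median -0.66, and for immediate early genes they are 0.35 and -0.20.

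The other lists were examined in the same way. Of 19 interferon and antigen presentation genes 17 were below the median gene, 4 of them at least 2-fold against 1.29% of all genes, and the list's median was -0.18 (beta -0.56, delta -0.25, PP -0.56). Macrophage markers were lower in HFD alpha cells as well (83.0 and 40.1 CPM, with Csf1r at 0 in the HFD library). Without the 5 highest cells of each gene the list median was -0.13 (3 of 16 genes above), and the part of other cells in the result was not tested. Ifitm3, an antiviral membrane protein, stood at 14.8 and 1.78 CPM, a ratio of -2.92. The most abundant member, H2-K1, a class I antigen, stood at 268 and 259 CPM (-0.03). Cytosolic ribosomal protein genes had 12 of 83 above the median gene and a median of -0.18, and antioxidant and metal genes had 10 of 25 above and a median of -0.19. Among the latter, Ftl1, the ferritin light chain, stood at 2447 and 1530 CPM (-0.65), and Gpx3, a secreted glutathione peroxidase, at 2144 and 1417 CPM (-0.57). Fatty acid oxidation genes had 15 of 24 above and a median of 0.20, with Etfb, an electron carrier, at 100.1 and 141 CPM (0.52). Of the 15 heat shock genes 10 were above the median gene. None was at least 2-fold higher and 2 were at least 2-fold lower, Hspa1a and Dnajb1, against 1.29% of all genes. Dnajb1 stood at 37.0 and 17.5 CPM (-1.04), with -1.73 in beta, -1.09 in delta and -1.03 in PP cells. Hspa1a, which shares near-identical sequence with Hspa1b, stood at 28.0 and 1.19 CPM (-4.37), and its ratio in beta cells was -3.73.

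The signals that alpha cells receive showed small list medians. Of 17 receptors compared between the libraries 7 were above the median gene, with a median of -0.12, and 1 was at least 2-fold lower, against 1.29% of all genes. It was Gipr, the receptor of the incretin GIP, at 7.86 CPM (41 counts) and 3.27 CPM (11 counts), a ratio of -1.19 (-2.35 to -0.26). Of 24 ion channel genes 10 were above it, with a median of -0.15. Insulin receptor signalling had 15 of 23 above and a median of 0.15, with Irs2, an adaptor of the insulin receptor, at 21.7 and 35.4 CPM (0.73). Amino acid transport and metabolism had 12 of 22 above and a median of 0.09, with Arg1 as the 1 gene at least 2-fold higher, against 0.571% of all genes. The alpha identity genes had 13 of 23 above and a median of 0.07. Pou3f4, a transcription factor of alpha cells, was the 1 member at least 2-fold higher, against the same 0.571%, at 7.86 and 20.2 CPM.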

How the data were processed

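The deposited matrices hold whole UMI counts for every gene and barcode, not normalized. Libraries followed the 3' v2 protocol of 10x Genomics, per the labels, and the submitters' processing notes name Cell Ranger 2.1.0. The build of the genome is not given in the sources used here. The table lists 27998 genes. Members were found from each barcode's hormone shares; the members and the gene lists were chosen with earlier results of these data known.

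Counts were summed per class and library, and ratios took 0.5 counts added to each sum and were set relative to the median over genes with a summed count of at least 50. Exact binomial ratio intervals, like those of CPM and shares, cover counting error only. A cell could belong to more than 1 comparison class, and no alpha cell did. No doublet caller was run: the rule limits second hormones, and the labels state few doublets.

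Named genes excluded the hormones of the rule, predicted genes, pseudogenes, mitochondrial genes and, between libraries and for variation, other cell types' markers. They were the 20 highest and 10 lowest in the ratio nearest to 0 over the 3 classes (at least 50 CPM), the 12 highest and 12 lowest ratios between libraries (at least 50 CPM and 100 counts), the 12 most variable, the extremes of each list, and Ttr, Irx1 and Cd63. Some of these genes are not reported here. Other genes were chosen from the lists after their values were seen. Analyses used Python 3.11.15, numpy 2.4.6, scipy 1.17.1, pandas 2.3.3 and matplotlib 3.10.9, and the ratio calculation was tested on simulated data. Scaling factors of edgeR 4.0.16 and DESeq2 1.42.0 served as alternatives.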

Additional observations from a re-analysis of the deposited data

Results flagged for a closer look

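In 3 gene lists the medians between the HFD and the chow library had opposite signs in alpha and beta cells and lay at least 0.5 apart. Other lists had opposite signs with smaller gaps, and no such difference was tested. For the unfolded protein response and folding in the endoplasmic reticulum the median log2 ratio relative to the median gene was 0.17 in alpha and -0.51 in beta cells. For immediate early genes it was 0.35 and -0.20. For nuclear genes of oxidative phosphorylation it was 0.10 and -0.66. Each class has 1 library per diet, so no spread between replicates stands behind these medians.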

How the results depend on the processing

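The alternatives changed the choice of cells, the depth, the scaling, the counts added and the minimum count. The 631 chow members became 362 with at least 20% Gcg. They became 122 when cells with more than 2 UMIs of non-endocrine types' markers were removed (few other markers). The latter left 58 of 314 HFD members. Many alpha cells hold UMIs of ductal markers such as Epcam, with 3 or more in 421 and 224 cells. The 48 genes at least 2-fold higher in the HFD library became 1284 with no minimum count. The 108 lower genes became 66 with at least 20% Gcg, 39 with few other markers, 66 after thinning to 3800 UMIs, 1164 with no minimum count and 68 with 5 counts added. The 60 genes above all 3 classes became 35 after thinning and 133 with no minimum. The 53 genes below became 31 when comparison cells of more than 1 class or with at least 5% Gcg were left out. They became 17 after thinning and 336 with no minimum. Thinning lowers the counts, so fewer genes reach the minimum, and the cause of the other changes was not tested.

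Of 480 gene ratios between libraries under alternatives, 421 stayed within their counting interval, 52 moved and 7 turned sign. Ttr (0.03) turned to -0.000953 with at least 20% Gcg, -0.0080 with a cap on depth, -0.0463 without a limit on Ppy, -0.0500 after thinning, -0.0371 as the mean of cell shares and -0.0109 with 5 counts added. With few other markers, Chgb (0.29) turned to -0.32, the alpha identity median (0.07) to -0.0392 and that of heat shock (0.08) to -0.0742. The other 163 of 165 list medians kept their sign. With ductal markers left out of the limit on other markers, the alpha identity and heat shock medians were 0.0962 and 0.115. Over the alternatives Fosb ran from 2.59 to 2.80, Mt1 from -1.86 to -1.66 and Mt2 from -2.20 to -1.91. Ccl5 ran from -6.21 to -1.14, with values set by the 0.5 counts added where few counts were left. The alternatives that leave out the 5 highest cells, the ductal list or the limit on Ppy were chosen after seeing the data. No paired analysis was possible because each diet has 1 library, and for the same reason no replicate could be left out. Genes under about 50 counts per comparison were not resolved at this depth.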

Other observations

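The metallothionein difference between the libraries was also seen in the alpha cells with 2 to 15% Ppy: Mt1 stood at 1121 (chow) and 449 CPM (HFD), and Mt2 at 695 and 268 CPM.

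Malat1 was higher in the HFD library in every class, with relative log2 ratios of 0.62 in alpha, 0.67 in beta, 0.50 in delta and 0.49 in PP cells.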
